A study of Mus musculus with 4 samples.

Results

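The coreceptors CD4 and CD8 and the transcription factors that steer a thymocyte towards one of them were followed in double positive thymocytes, the thymic T cell precursors that carry both coreceptors at once. The members were 9 of 18193 genes: Cd4, Cd8a and Cd8b1, which encode the coreceptors, and Zbtb7b, Runx3, Runx1, Cbfb, Gata3 and Patz1, which encode regulators of the choice. Every probe set annotated with a single symbol among these 9 was taken, which gave 22 of the 34945 probe sets with a single symbol and of 45037 in all. Thymocytes of 4 mice were hybridised to Affymetrix mouse expression arrays, 1 array per mouse. All 4 mice were Ikf/f, so the controls carry the floxed Ikaros alleles as well. The 2 control mice lacked the Cre transgene (Ikf/f CD4-Cre-, here Cre-negative), and the other 2 carried it (Ikf/f CD4-Cre+, here Cre-positive). Cre recombinase under Cd4 control is meant to delete Ikaros, the zinc finger DNA-binding protein encoded by Ikzf1, in these mice. Every Cre-positive mouse also had floxed Ikzf1, so effects of Cre and of Ikaros loss cannot be told apart. The sources used here give neither the age and sex of the mice, nor how the cells were isolated, nor the batch of each array.

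CD4 binds MHC class II and CD8, a dimer of CD8α and CD8β chains, binds MHC class I, and the tails of CD4 and CD8α carry the kinase Lck to the T cell receptor. After positive selection a thymocyte keeps one coreceptor: ThPOK, the product of Zbtb7b, commits cells restricted by MHC class II to the CD4 helper lineage, and Runx3 commits cells restricted by MHC class I to the CD8 cytotoxic lineage and silences Cd4. Runx1 acts at the Cd4 silencer at earlier stages, Runx proteins need their partner Cbfβ to bind DNA firmly, Gata3 acts upstream of ThPOK, and Patz1 (MAZR) restrains Cd8 and Zbtb7b. Ikaros is known to bind at the Cd8 locus. The comparison asks whether transcripts of these genes differed between mice with and without CD4-Cre.

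Sequences at the starts of the members are shown first, since Runx proteins and Ikaros bind DNA. RefSeq promoter windows (build GRCm38.p6, 250 bases before to 50 after each gene's start) were matched by symbol for 7 of the 9 genes, in 11 windows; Cd4 and Cd8b1 were not matched. A RUNX core (letters TGTGGT), an Ikaros core (TGGGAA) and a GATA core (AGATAA) were searched on both strands, and 0 matches overlapped one another. The RUNX core was present in 3 of the 11 windows, against 16.8% of all 32851 windows of the same length. The Ikaros core was present in 3 of 11, against 25.6% of all windows, and the GATA core in 0 of 11, against 11.2%. The RUNX matches lay at the upstream start of Runx1, at the upstream start of Runx3 and at the downstream start of Zbtb7b. The Ikaros matches lay at Cd8a, at the upstream start of Zbtb7b and at the upstream start of Runx3.

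The upstream starts of Runx1 and Runx3 each held a pair of RUNX cores whose first bases were 8 bases apart on the same strand. Such a pair was found in 7 of 32851 windows (0.0213%), those of Runx1, Runx2, Runx3, Gm16225 (whose window overlaps that of Runx3 on the opposite strand), Gm12236, Gm15462 and Olfr24. The spacing was chosen after values or sequences were seen, so this share is a description and not a test. The 30 bases around the pair are shown for both members because they share the arrangement, with the cores in capitals as they read on the gene's strand (ACCACA, the reverse complement of TGTGGT). The stretch of Runx1 is chr16:92826025-92826054 on the minus strand, bases 21 to 50 counted from the start as base 1, and that of Runx3 is chr4:135120503-135120532 on the plus strand, bases −142 to −113. The 250 bases before the start of Cd8a, chr6:71373177-71373426 on the plus strand, are shown as the one matched window of a coreceptor gene. Their capitals mark the Ikaros core on the opposite strand (TTCCCA), at bases −89 to −84. A match describes the letters only, and the sources used here do not say which start a probe set reads.
Runx1, upstream start: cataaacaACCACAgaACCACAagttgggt
Runx3, upstream start: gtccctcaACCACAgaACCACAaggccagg
Cd8a: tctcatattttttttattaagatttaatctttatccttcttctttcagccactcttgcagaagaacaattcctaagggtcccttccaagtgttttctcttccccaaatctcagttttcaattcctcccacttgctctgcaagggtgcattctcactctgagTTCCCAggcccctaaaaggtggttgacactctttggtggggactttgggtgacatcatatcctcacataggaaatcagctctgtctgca

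Signals are RMA values on the log2 scale, so a difference of 1 is a 2-fold change, and all differences are Cre-positive minus Cre-negative. Where a pair of values is given for a group, sample 1 comes before sample 2. Probe sets with a single symbol and a mean of at least 4.76, the 40th percentile, were tested together in limma (20967 probe sets), and a probe set was called at a Benjamini-Hochberg adjusted p under 0.05. All 22 member probe sets passed that filter. The check of the labels is Ikzf1, whose brighter probe set gave 12.40 and 12.08 in controls and 10.80 and 10.62 with Cre, a difference of −1.53 ± 0.16 (SE, n = 2 per group, limma adjusted p = 0.0346); the dimmer one differed by −0.22 and was not called. Of all tested probe sets 182 were called (0.868%), 134 upwards (0.639%) and 48 downwards (0.229%). That count was 21 and 4 after Cre-negative sample 1 or 2 was left out, and 7 and 48 after Cre-positive sample 1 or 2 was left out. Cre-negative sample 2 stood apart in Xist, the RNA that coats the inactive X, with 12.75 in probe set 1436936_s_at against values from 4.73 to 5.37 in the remaining mice. The Y-linked genes Eif2s3y (1417210_at) and Kdm5d (1424903_at) gave 2.89 and 2.86 on that array, against at least 10.16 and 8.23 in the remaining mice. By these genes that array reads as female and the remaining arrays as male, so sex was not balanced between the groups. With that array left out 0 members were called, at a lowest adjusted p of 0.130 in limma. The samples are separate mice, and an exact permutation test of a single probe set on 2 against 2 arrays could give no p below 0.333.

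No transcript of the coreceptors and lineage choice factors passed the test. None of the 22 member probe sets was called in limma (0 upwards and 0 downwards, against 0.639% and 0.229% of all tested probe sets), and adjusted p-values ran from 0.146 to 0.994. At an unadjusted p under 0.05 there were 3, a Cd8a probe set on the lower side and 2 Runx1 probe sets on the higher side. That is 13.6% of the members, against 21.2% of all tested probe sets (12.1% higher and 9.06% lower). The largest difference among the members was 0.45 in size, and 17.4% of all tested probe sets differed by more. The groups did not overlap for 11 of the 22, with Cre-positive arrays above in 6 and below in 5. Across all tested probe sets the groups did not overlap for 53.2%, with Cre-positive arrays above in 31.5% and below in 21.8%. The members' median difference was −0.014, against 0.042 over all tested probe sets, and the median size of a difference was 0.14 against 0.18. Under each of 15 alternatives the members called were again 0. With 2 arrays per group, the 95% intervals of the members reached from −0.84 to 0.91 at their widest.

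**Figure D1:**
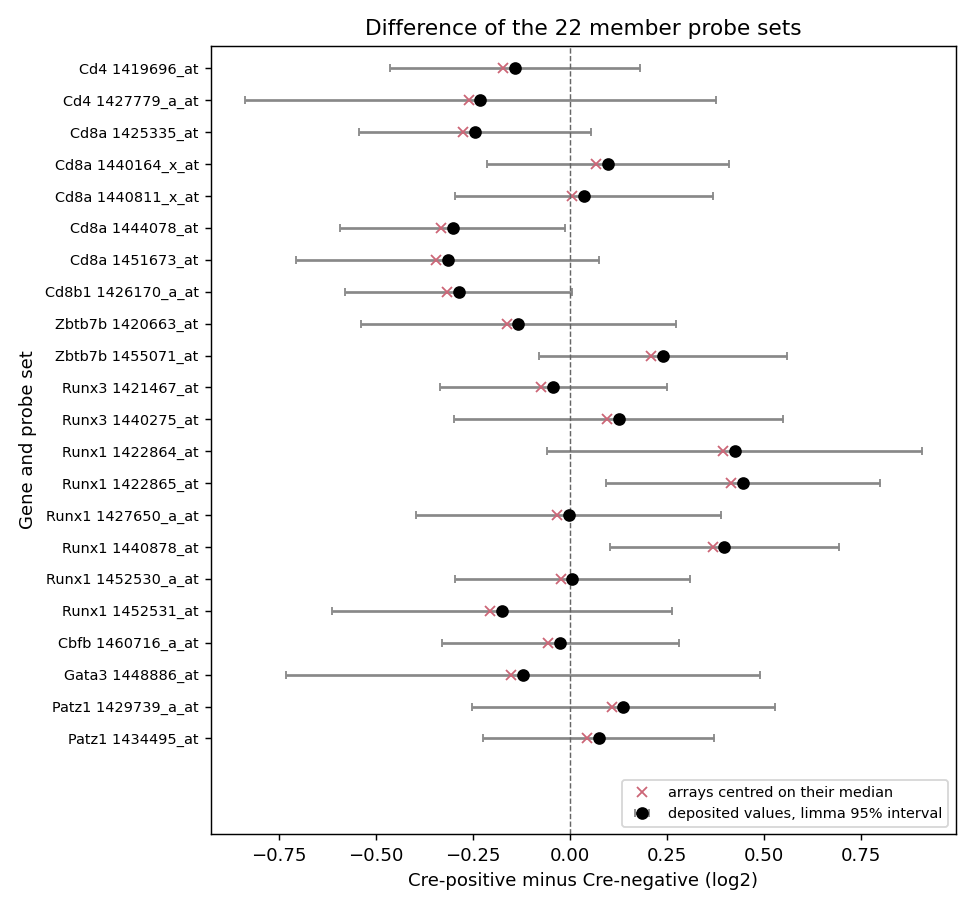
Difference between Cre-positive and Cre-negative mice (log2, x axis) for each of the 22 member probe sets (y axis), with the limma 95% interval as a bar (n = 2 mice per group) and a cross for the value after centring each array on its median. The intervals of 3 probe sets, 1 of Cd8a and 2 of Runx1, leave out 0, and no probe set was called after adjustment.

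Cd8a, which encodes the CD8α chain, had 5 probe sets, and 3 of them read slightly lower in both Cre-positive mice. Of all tested probe sets 21.8% were lower without overlap. Probe set 1444078_at gave 12.99 and 13.04 in controls and 12.72 and 12.71 with Cre. Both Cre-positive arrays lay below both Cre-negative arrays, and the mice of a group lay closer together than the groups. The difference was −0.30 ± 0.12 (SE, n = 2 per group), a ratio of 0.811 with a 95% interval from 0.663 to 0.992 (limma adjusted p = 0.223). Probe set 1451673_at gave 11.71 and 11.39 in controls and 11.31 and 11.16 with Cre. Here too the groups did not overlap, but the controls differed from each other by 0.32, and the difference between the groups was −0.31 ± 0.16 (limma adjusted p = 0.322). Probe set 1425335_at gave 12.88 and 12.79 in controls and 12.62 and 12.56 with Cre, again without overlap, and differed by −0.24 ± 0.12 (limma adjusted p = 0.319). With any single array left out, these 3 differences ran from −0.47 to −0.16. Their sign could not turn, since the groups did not overlap.

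The remaining pair of Cd8a probe sets, whose suffix _x_at marks probes that can bind several transcripts, did not lie lower. Probe set 1440164_x_at gave 8.64 and 8.49 in controls and 8.66 and 8.66 with Cre, with both Cre-positive arrays above, and differed by 0.099 ± 0.12 (limma adjusted p = 0.704). Probe set 1440811_x_at gave 11.32 and 11.11 in controls and 11.22 and 11.28 with Cre, so its groups overlapped, and its difference of 0.037 ± 0.13 was −0.070 without Cre-negative sample 2. Averaged over its 5 probe sets Cd8a differed by −0.15 ± 0.11 (limma adjusted p = 0.506 over genes, where 1.49% of genes were called).

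Cd8b1, which encodes the CD8β chain that pairs with CD8α on thymocytes, had a single probe set, 1426170_a_at. It gave 13.01 and 12.95 in controls and 12.67 and 12.71 with Cre. The groups did not overlap and each was tight, with group means of 12.98 ± 0.042 and 12.69 ± 0.027 (SD over 2 mice). The difference of −0.29 ± 0.12 (SE), a ratio of 0.820 with a 95% interval from 0.669 to 1.00, lay close to that of the brightest Cd8a probe set and was not called (limma adjusted p = 0.244). After any single array was left out the difference ran from −0.32 to −0.26, and without overlap its sign could not turn.

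Cd4, whose regulatory elements also drive the Cre transgene, had 2 probe sets, with negative differences that were not called. Probe set 1419696_at gave 10.48 and 10.64 in controls and 10.47 and 10.37 with Cre. The groups were 0.0088 apart, between sample 1 of each group, and the difference was −0.14 ± 0.13, a ratio of 0.906 with a 95% interval from 0.725 to 1.13 (limma adjusted p = 0.585). Probe set 1427779_a_at gave 8.27 and 7.55 in controls and 7.66 and 7.70 with Cre. The controls were the highest and the lowest of the 4 mice, so the groups overlapped. Its difference of −0.23 ± 0.24 (limma adjusted p = 0.644) was 0.13 without Cre-negative sample 1. Signals of different probe sets are not on a common scale, so no ratio of CD4 to CD8 transcripts was formed.

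**Figure D2:**
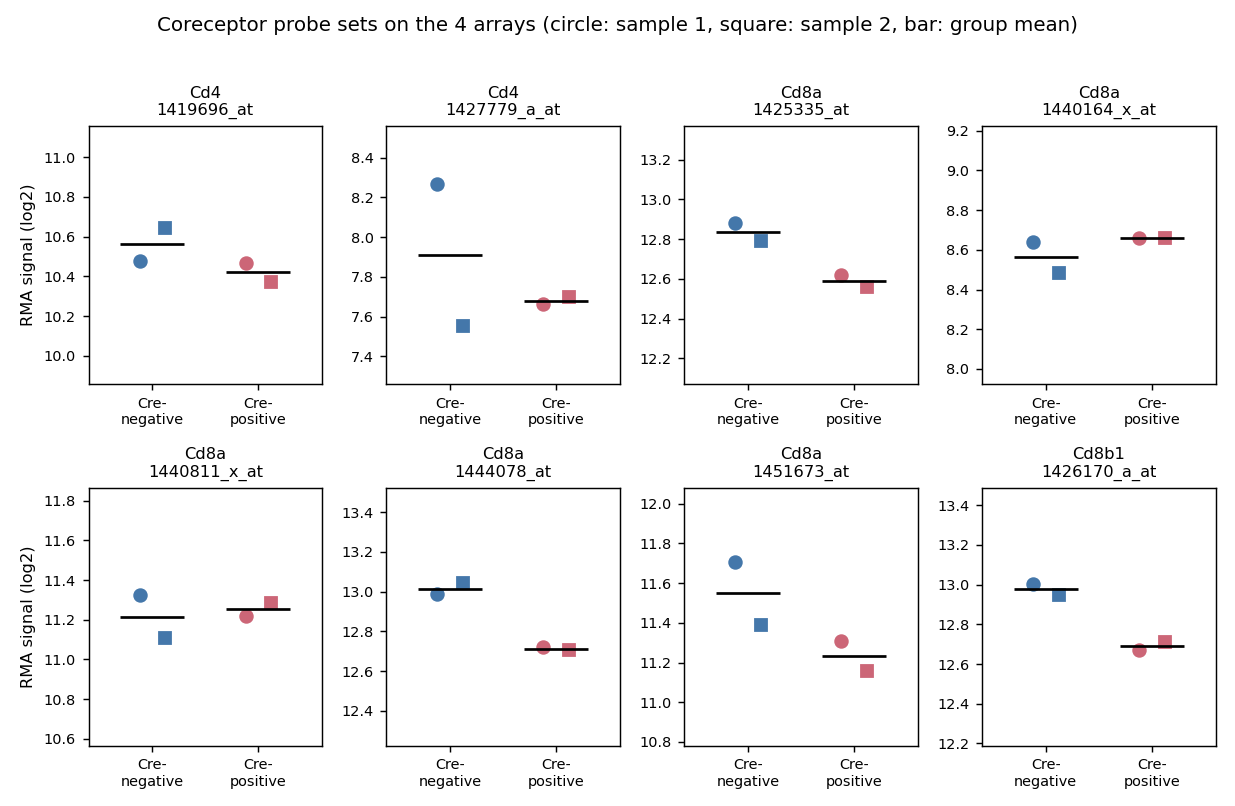
RMA signal (log2, y axis, each panel spanning 1.3) of the 8 coreceptor probe sets in the 2 Cre-negative and 2 Cre-positive mice, with circles for sample 1, squares for sample 2 and bars for group means. Cd8b1 and 3 of the 5 Cd8a probe sets lie lower in both Cre-positive mice, by 0.24 to 0.31. Lower without overlap were 21.8% of all tested probe sets. Cd4 1419696_at differs by −0.14 with a gap of 0.0088 between the groups, and Cd8a 1440164_x_at lies higher, by 0.099. For the second Cd4 probe set the controls lie above and below the Cre-positive mice. No coreceptor probe set was called.

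Runx1, the Runx factor that acts at the Cd4 silencer before selection, gave the largest differences among the members, in 3 of its 6 probe sets. All 3 had both Cre-positive mice above both controls, as did 31.5% of all tested probe sets, and none was called. Probe set 1440878_at gave 8.98 and 9.05 in controls and 9.44 and 9.39 with Cre. The groups did not overlap, each was tight, and the difference was 0.40 ± 0.12 (SE, n = 2 per group), a ratio of 1.32 with a 95% interval from 1.07 to 1.62 (limma adjusted p = 0.146). Probe set 1422865_at gave 7.21 and 7.02 in controls and 7.66 and 7.47 with Cre. The groups did not overlap, and the difference was 0.45 ± 0.14, a ratio of 1.36 (limma adjusted p = 0.162). Probe set 1422864_at gave 9.91 and 9.55 in controls and 10.34 and 9.97 with Cre, which left a gap of 0.060 between the groups, and differed by 0.42 ± 0.19 (limma adjusted p = 0.286). After any single array was left out these 3 differences ran from 0.24 to 0.61. Because the groups did not overlap, leaving out 1 array could not turn their sign.

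The other 3 Runx1 probe sets overlapped between the groups. Probe set 1427650_a_at gave 7.39 and 7.05 in controls and 7.15 and 7.28 with Cre. Probe set 1452530_a_at gave 5.13 and 5.25 in controls and 5.20 and 5.19 with Cre. Their differences were −0.0031 and 0.0070, and both turned sign with quantile normalization. Probe set 1452531_at gave 7.88 and 7.47 in controls and 7.57 and 7.43 with Cre and differed by −0.17 ± 0.18, or by 0.036 without Cre-negative sample 1. The 6 probe sets thus differed among themselves, and their mean differed by 0.18 ± 0.12 (limma adjusted p = 0.435 over genes). Taken as its brightest probe set, in a fit that called 1.37% of genes, Runx1 had an adjusted p of 0.284 in limma.

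**Figure D3:**
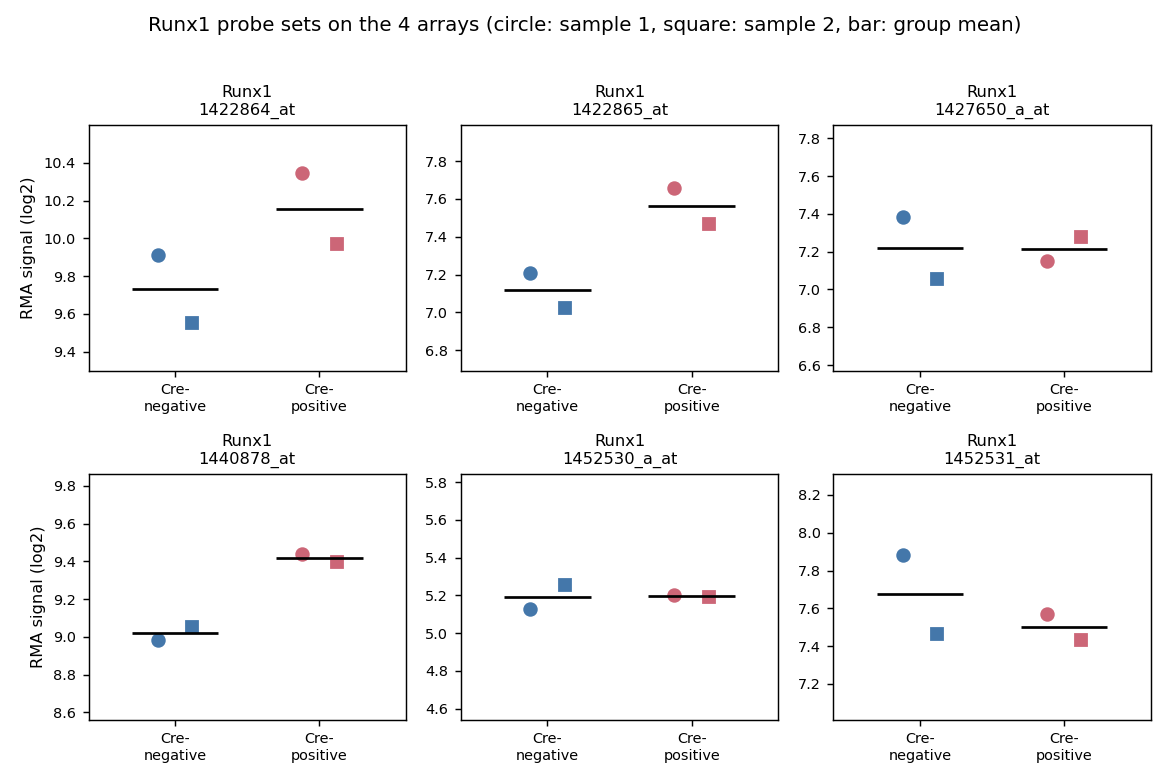
RMA signal (log2, y axis, each panel spanning 1.3) of the 6 Runx1 probe sets in the 2 Cre-negative and 2 Cre-positive mice, with circles for sample 1, squares for sample 2 and bars for group means. Probe sets 1422864_at, 1422865_at and 1440878_at lie higher in both Cre-positive mice, by 0.40 to 0.45, and the other 3 overlap. Of all tested probe sets 31.5% were higher without overlap, and no Runx1 probe set was called.

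Runx3, the CD8 lineage factor, gave low signals in both groups. Probe set 1440275_at gave 6.36 and 5.95 in controls and 6.28 and 6.28 with Cre. Probe set 1421467_at gave 5.32 and 5.35 in controls and 5.32 and 5.26 with Cre. The groups overlapped in both. The first differed by 0.13 ± 0.17 (−0.081 without Cre-negative sample 2) and the second by −0.043 ± 0.12 (limma adjusted p = 0.725 and 0.872). Cbfb, the shared partner of the Runx proteins, gave 11.05 and 11.16 in controls and 11.04 and 11.12 with Cre in probe set 1460716_a_at. These groups overlapped as well, and the difference was −0.025 ± 0.12, with a 95% interval from −0.33 to 0.28 (limma adjusted p = 0.934). It was 0.030 without Cre-negative sample 2 and 0.017 without Cre-positive sample 1.

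Zbtb7b, which encodes the CD4 lineage factor ThPOK, also gave low signals, and its 2 probe sets differed in sign. Probe set 1455071_at gave 5.11 and 5.06 in controls and 5.42 and 5.24 with Cre, without overlap, and differed by 0.24 ± 0.13 (limma adjusted p = 0.353). Probe set 1420663_at gave 5.39 and 5.74 in controls and 5.52 and 5.35 with Cre, with overlap, and differed by −0.13 ± 0.16 (limma adjusted p = 0.697), or by 0.040 without Cre-negative sample 2. Their mean differed by 0.054 ± 0.12 (limma adjusted p = 0.838 over genes).

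Gata3, which acts before ThPOK in the CD4 lineage and earlier in T cell development, had 1 probe set, 1448886_at. It gave 9.10 and 9.06 in controls and 9.32 and 8.60 with Cre. The Cre-positive mice lay on either side of the controls and 0.72 apart, the widest spread within a group among the members. The difference of −0.12 ± 0.24 (limma adjusted p = 0.821) was 0.24 when Cre-positive sample 2 was dropped and −0.48 when sample 1 of that group was dropped.

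Patz1, a repressor that acts on Cd8 and Zbtb7b, had 2 probe sets. Probe set 1434495_at gave 8.76 and 8.67 in controls and 8.77 and 8.81 with Cre, a gap of 0.011 between the groups, and differed by 0.074 ± 0.12 (limma adjusted p = 0.769). Probe set 1429739_a_at gave 10.18 and 10.52 in controls and 10.54 and 10.45 with Cre, with overlap, and differed by 0.14 ± 0.16 (limma adjusted p = 0.667), or by −0.031 without Cre-negative sample 1.

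**Figure D4:**
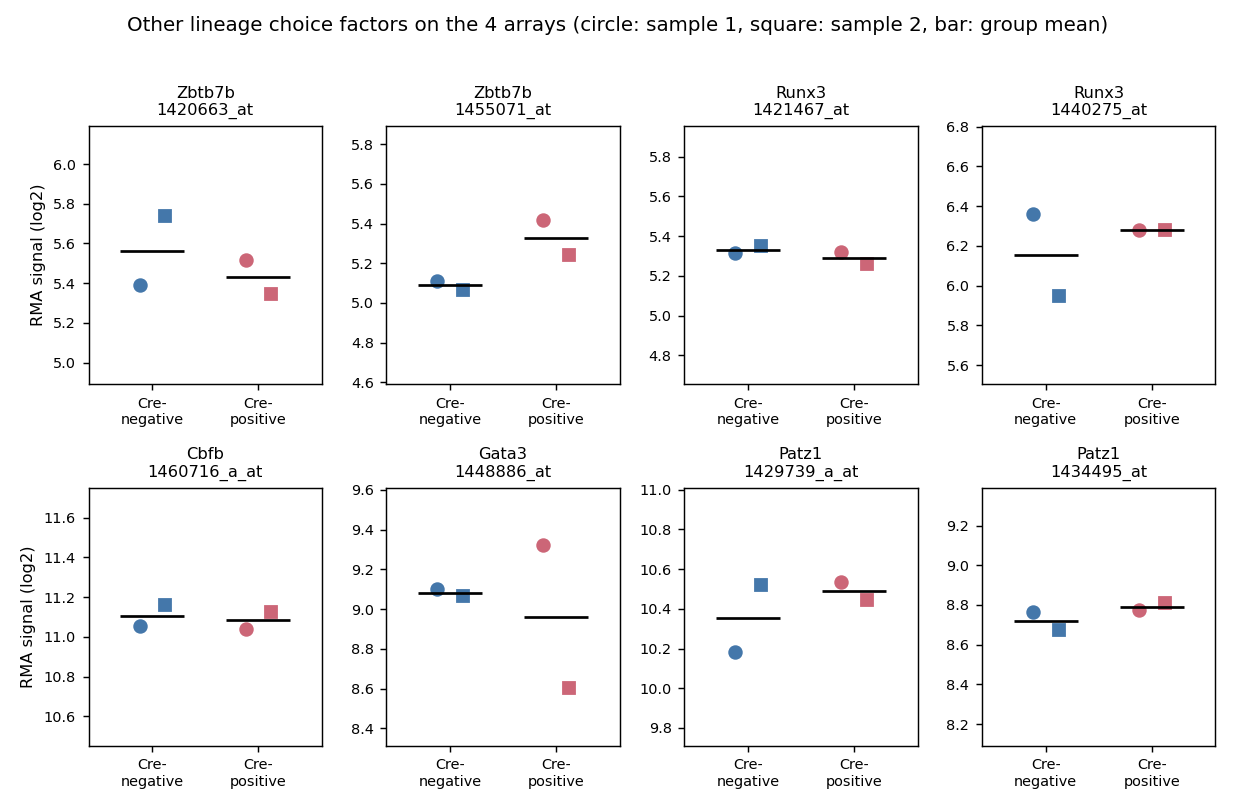
RMA signal (log2, y axis, each panel spanning 1.3) of the 8 probe sets of Zbtb7b, Runx3, Cbfb, Gata3 and Patz1 in the 2 Cre-negative and 2 Cre-positive mice, with circles for sample 1, squares for sample 2 and bars for group means. Group means differ by at most 0.24, and the Cre-positive mice are farthest apart for Gata3.

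By likeness of pattern over the 4 arrays, the member probe set with the largest difference, Runx1 1422865_at, was closest to probe sets of Ilrun, Syngr2 and Mmgt2. The root mean square distance between centred values was 0.0092, 0.013 and 0.014 log2 units, the smallest among 20945 tested probe sets of other genes. These probe sets differed by 0.43, 0.47 and 0.46 and were not called (limma adjusted p = 0.167, 0.153 and 0.146).

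Among 38 further regulators of the choice and of coreceptor expression, 34 genes were measured with 78 tested probe sets. Of these probe sets 3 rose and 0 fell, beside 0.639% and 0.229% of all tested probe sets. Id2, which binds E proteins and keeps them off DNA, gave 5.52 and 5.26 in controls and 7.21 and 7.80 with Cre in probe set 1435176_a_at, and rose by 2.12 ± 0.23 (SE, n = 2 per group, limma adjusted p = 0.0351). Its other probe sets differed by 0.31 and 0.24 and were not called. Tox2, an HMG-box factor related to Tox, gave 6.82 and 6.86 in controls and 7.93 and 8.12 with Cre, and rose by 1.19 ± 0.13 (limma adjusted p = 0.0368). Il7r, the receptor through which interleukin 7 supports CD8 lineage cells, gave 4.68 and 4.75 in controls and 5.74 and 5.93 with Cre, and rose by 1.12 ± 0.13 (limma adjusted p = 0.0374). The control mean of this probe set lay below the signal filter, so it was tested only through its Cre-positive signal, and its call is given as a description here and among the markers. After any single array was left out, 0 of these 3 were called. The median of the list was 0.0082, with 23 of 78 probe sets higher and 17 lower without overlap, beside 31.5% and 21.8% of all tested probe sets.

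Of the genes not called in that list, those with the smallest p were Lef1, Satb1, Smarcc1 and Tcf12. Lef1, which acts with Tcf1 upstream of Zbtb7b, gave 10.48 and 10.43 in controls and 11.20 and 11.04 with Cre in its brighter probe set, a difference of 0.66 ± 0.13 (limma adjusted p = 0.0723); the other differed by 1.08. Satb1, a chromatin organiser that acts on enhancers of the lineage genes, differed by −0.22, −0.12 and −0.084 in 3 probe sets and by −0.81 in each of the other 2. The BAF subunit gene Smarcc1 differed by 0.39, 0.49 and 0.68 in 3 probe sets and by −0.23 in its dimmest. Tcf12, the E protein HEB, differed by 0.076 to 0.12 in 3 probe sets and by −0.74 and −0.63 in the others.

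Partners and corepressors of Runx proteins held 24 tested probe sets of 10 genes, and 0 were called in limma, beside 0.868% of all tested probe sets. At an unadjusted p under 0.05 there were 6, 3 on each side, beside 21.2% of all tested probe sets. Of these 24, 11 were higher and 3 lower without overlap, beside 31.5% and 21.8% of all tested probe sets, and the median was 0.14 beside 0.042. Tle1, Tle3 and Tle4 encode Groucho corepressors that bind the tail of Runx proteins. Tle1 differed by 1.09 ± 0.16 in one probe set (limma adjusted p = 0.0565) and by 0.0037 in the other. Tle4 differed by −1.35 and −0.32 in its 2 tested probe sets, and Tle3 by −0.43 to 0.43 over 4. The coactivator gene Crebbp differed by 0.097 to 0.83 over 4 probe sets.

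Signalling next to the coreceptors was represented by 25 tested probe sets of 14 genes. Of these probe sets 0 rose and 1 fell, beside 0.639% and 0.229% of all tested probe sets. Themis, needed for positive selection, gave 11.69 and 11.62 in controls and 10.59 and 10.49 with Cre in probe set 1443192_at, which fell by 1.12 ± 0.12 (limma adjusted p = 0.0351). Its other 3 probe sets differed by −0.19 to −0.049 and were not called, and after any single array was left out the first was not called either. Ptprc, the phosphatase CD45 that keeps Lck active, differed by −1.12 in one probe set and by −0.095 in its brighter one. The adaptor gene Lcp2 differed by −0.42 and −0.062, Cd3e by 0.41, and Cd247 by −0.33 in its brightest probe set and by 0.81 in another. The median of the list was −0.095.

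Of 18 CD8 lineage and cytotoxic genes 6 passed the signal filter, with 1 tested probe set each, and 1 rose, beside 0.639% of all tested probe sets. The granzyme gene Gzma gave 10.29 and 10.19 in controls and 11.92 and 11.42 with Cre, and rose by 1.43 ± 0.19 (limma adjusted p = 0.0492; not called after any single array was left out). The chemokine gene Ccl5 differed by 0.62, the cathepsin gene Ctsw by 0.089 and the perforin gene Prf1 by −0.32. The cytokine receptor gene Il2rb differed by 0.26, but its control mean of 4.67 lay below the signal filter, so it was tested only through its Cre-positive signal.

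Of 14 CD4 lineage genes 11 passed the signal filter, with 14 tested probe sets, and 0 were called in limma, beside 0.868% of all tested probe sets. At an unadjusted p under 0.05 there were 3, beside 21.2% of all tested probe sets. In that list 6 of 14 probe sets were lower and 1 higher without overlap, beside 21.8% and 31.5% of all tested probe sets, and the median was −0.28, against 0.042 over all tested probe sets. The costimulatory receptor gene Icos accounted for 3 of the 6, with differences of −0.59, −0.41 and −0.32. The inhibitory receptor gene Ctla4 differed by −0.81 and Il21r by −0.56. Izumo1r, which encodes folate receptor 4, differed by 0.69 ± 0.12 (limma adjusted p = 0.0631).

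**Figure D5:**
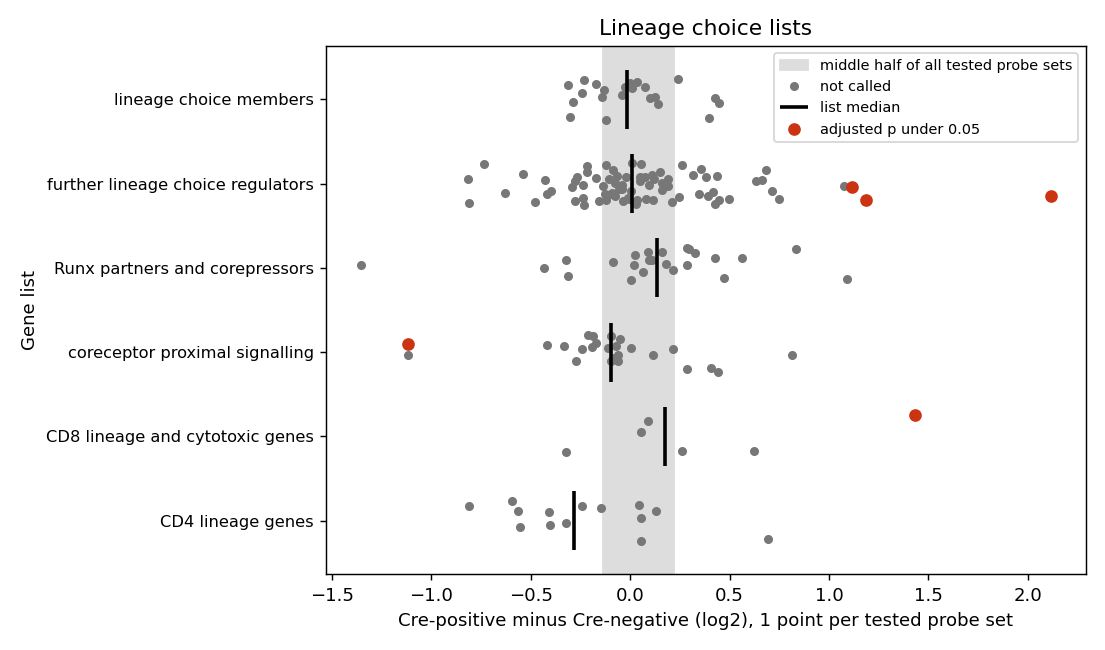
Difference between Cre-positive and Cre-negative mice (log2, x axis) of every tested probe set in 6 gene lists (y axis), with list medians as bars, called probe sets in red and the middle 50% of all tested probe sets shaded. The member probe sets stay between −0.31 and 0.45 with 0 called, and the other lists hold 5 called probe sets, those of Id2, Tox2, Il7r, Gzma and Themis. Of all tested probe sets 0.868% were called, and the Il7r probe set was tested only through its Cre-positive signal.

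Levels of cell type markers differed between the groups as well, and their part in the values above was not tested. In such bulk samples fewer cells of a type and less RNA per cell cannot be told apart. Among all tested probe sets 0.639% rose and 0.229% fell, and the marker counts stand beside these shares. Marker means and counts cover tested probe sets only, and the signal filter used the mean over all 4 arrays. A dim probe set could thus enter through its Cre-positive signal, as Itgax did with group means of 4.65 in controls and 4.92 with Cre. The list means are therefore descriptions only. Of 35 tested probe sets of double positive markers 0 rose and 2 fell, those of Ccr9 and Themis, and 19 were lower and 5 higher without overlap, beside 21.8% and 31.5% of all tested probe sets. The mean signal of that list was 10.28 and 10.22 in controls and 9.99 and 9.96 with Cre. Rag1, a recombinase subunit that marks the stage, gave 13.46 and 13.42 in controls and 13.25 and 13.41 with Cre. Its difference of −0.11 was the median of the list, and some other markers of the stage fell by more while others did not. Arpp21 differed by −0.999 to −0.088 over its probe sets, Cd1d1 by −0.83 and −0.66 and Rag2 by −0.41, and these were not called. The Ccr9 probe sets differed by −0.97 to −0.18. Dntt differed by −0.018 to 0.048, Cd24a by 0.14 to 0.23 and Ets2 by −0.15 to −0.052, and these were not called. The highest difference in the list was 0.27, in a Bcl2l1 probe set that was not called. Of 18 tested probe sets of mature single positive markers 1 rose (Il7r), with list means of 8.30 and 8.13 in controls and 8.65 and 8.67 with Cre. In that list 9 probe sets were higher and 3 lower without overlap, beside 31.5% and 21.8% of all tested probe sets. The largest difference was that of the MHC class I gene H2-K1, 2.26 ± 0.31 in probe set 1425336_x_at (limma adjusted p = 0.0508), whose probes can bind several transcripts. Cd53, a membrane protein gene, differed by 1.32, Itm2a by 0.94 and 0.81, Klf2, which drives egress, by 0.71, and the activation marker gene Cd69 by −0.75, and these were not called. The homing receptor gene Ccr7 stayed between 5.05 and 5.41 and the egress receptor gene S1pr1 between 4.29 and 4.52, with a mean below the filter. Of 11 tested probe sets of double negative markers 1 rose, again Il7r, with list means of 6.13 and 6.02 in controls and 6.22 and 6.33 with Cre. In this list 5 probe sets were higher and 2 lower without overlap, beside 31.5% and 21.8% of all tested probe sets. Ptcra differed by 1.16 (limma adjusted p = 0.0591), Hes1 by 0.62 and Cd44 by −0.61 and −0.57 in its tested probe sets, and these were not called.

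Some dendritic cells carry CD8α or CD4, and natural killer cells express Runx3, so markers of these and other cell types were read beside the members. Of 13 tested probe sets of dendritic cell markers 2 rose, those of H2-Aa and H2-Ab1, beside 0.639% of all tested probe sets. The H2-Ab1 probe set, like one called Pdgfrb probe set of the stromal list, was tested only through its Cre-positive signal. The dendritic list means were 5.47 and 5.29 in controls and 6.05 and 6.11 with Cre. In the dendritic list 9 of 13 tested probe sets were higher and 1 lower without overlap, beside 31.5% and 21.8% of all tested probe sets. Irf8 differed by 1.08 and 0.60 (limma adjusted p = 0.0565 and 0.100) and Flt3 by −0.16, and these were not called. Xcr1, which marks the CD8α-bearing dendritic cells, stayed between 3.89 and 3.94 on all 4 arrays, below the filter. Of 11 tested probe sets of macrophage and granulocyte markers 3 rose, those of Csf1r, Ctss and Lyz2, beside 0.639% of all tested probe sets. Their list means were 5.26 and 5.13 in controls and 6.06 and 6.35 with Cre. In limma 0 of the 5 tested natural killer and innate lymphoid probe sets and 0 of the 4 tested B cell probe sets were called. At an unadjusted p under 0.05 there were 0 and 1, beside 21.2% of all tested probe sets. That 1, of Ms4a1, had a control mean of 4.56, below the filter, and was tested only through its Cre-positive signal. The natural killer receptor gene Ncr1 stayed between 3.61 and 3.82. Of 9 tested stromal and epithelial probe sets 2 rose, both of Pdgfrb, beside 0.639% of all tested probe sets. The stromal list means were 5.28 and 5.27 in controls and 6.96 and 6.46 with Cre. The 1 tested erythroid probe set, of Alas2, differed by −0.029.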

How the data were processed

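The authors deposited 1 log2 signal per probe set and array, made with RMA (background subtraction, normalization to a common distribution, summary of probes), per the submitters' processing notes; the version is not given in the sources used here. The base of the logarithm is not stated by the labels and was taken as log2, which RMA returns. Total RNA was labelled with biotin in a 2-cycle assay, per the labels' protocols. Array medians lay between 5.19 and 5.25. Of the 34945 probe sets with 1 symbol in the platform annotation, 34741 matched a RefSeq table by Entrez identifier, with 0 symbols changed.

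The 4 arrays, in groups given by the labels, were fitted per probe set in limma 3.58.1 (lmFit and eBayes without trend, R 4.3.3). Tests were two-sided and adjusted after Benjamini-Hochberg over 20967 probe sets, with 2 residual and 3.55 prior degrees of freedom. On simulated arrays of this comparison with 20967 probe sets the procedure found 24 of 100 changes of size 1 and 92 of 100 changes of size 2 in log2 units, with 9 false among 125 calls; smaller changes, such as those of the members, were not simulated. Members and lists were chosen with earlier results of these data known. The genes named were every member, Ikzf1, every called gene of a list, up to 4 more per list with the smallest p, and the 3 nearest in pattern. Marker genes, Xist, the Y-linked genes, the motifs and the pair spacing were chosen after values or sequences were seen. Plots were made in matplotlib 3.10.9.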

Additional observations from a re-analysis of the deposited data

How the results depend on the processing

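The members called were 0 under each of 11 alternative settings and with each of the 4 arrays left out. The count of 182 called probe sets was 105 with the filter at the 60th percentile, 106 without _s_at, _x_at and _a_at probe sets, 302 with eBayes with trend, 297 with a robust prior and 1475 with the replicate block, and lay between 4 and 48 with an array left out. The 5 called probe sets of the other lists became 3 with the filter at the 60th percentile, 2 after averaging the probe sets of each gene, 2 without _s_at, _x_at and _a_at probe sets and 19 with the replicate block, and were 0 with any array left out; the cause was not tested. The labels give the sample numbers no meaning as pairs, and the deviations of same-numbered samples correlated at 0.154 over tested probe sets. With the replicate block, too, 0 members were called.

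Signs turned as follows. Under centring on the array median, which moved the median of all tested probe sets from 0.042 to 0.011, Runx1 1452530_a_at differed by −0.023. With quantile normalization it differed by −0.025 and Runx1 1427650_a_at by 0.0028. With single arrays left out, 10 member probe sets took both signs: Cd4 1427779_a_at −0.59 to 0.13, Cd8a 1440811_x_at −0.070 to 0.14, Zbtb7b 1420663_at −0.30 to 0.040, Runx3 1440275_at −0.081 to 0.33, Runx1 1427650_a_at −0.17 to 0.16, 1452530_a_at −0.056 to 0.070 and 1452531_at −0.38 to 0.036, Cbfb −0.079 to 0.030, Gata3 −0.48 to 0.24 and Patz1 1429739_a_at −0.031 to 0.31.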
